A study of Mus musculus with 27 samples.

Results

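MOF knockdown in the male mouse embryonic stem (ES) cell line E14 was measured on 4 Affymetrix gene arrays of the 27 in the series. They were 2 arrays of cells given siRNA against MOF and 2 of cells given negative control siRNA, chosen by their titles and paired by experiment number. Per the labels, E14 is a Cast/BL6 hybrid line from blastocysts of a BL6 mother and a Cast father. The cells were kept undifferentiated with leukemia inhibitory factor, grown on fibroblast feeders that were depleted on gelatin before transfection, and given 100 pmol of siRNA once for 48 h. The labels name no siRNA sequence and no clone number. The same single round was used in WD44, another male line with 2 MOF and 2 control arrays, and in experiment 3 of the female line PGK12.1. PGK12.1 has 3 MOF and 3 control arrays, and in experiments 1 and 2 of that line the cells were transfected again with 400 pmol and grown for another 24 h. These lines serve only to show where E14 differed. All values are log2 levels as deposited, a difference is MOF minus control within an experiment, and a difference of 1 is a doubling. Of 35556 probesets, 21789 carried a single gene symbol, and 13481 genes with a mean log2 level of at least 6 over the 4 arrays were tested.

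MOF, encoded by Kat8, is a histone acetyltransferase that acetylates lysine 16 of histone H4, a mark of open chromatin. It works in 2 complexes. The MSL complex (Msl1, Msl2, Msl3) places the bulk of the mark and is known from dosage compensation of the fly X chromosome. The NSL complex (with Kansl1, Kansl2, Kansl3, Wdr5 and others) binds promoters of broadly expressed genes. ES cells need MOF for self-renewal in the mouse.

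The E14 arrays shared 1 scale, with medians of 6.76 to 6.78, against 6.225 to 7.96 over the 27 arrays. Across probesets the 2 controls correlated at 0.9955 and the 2 MOF arrays at 0.9964. MOF and control arrays correlated at 0.9939 to 0.9957, so the 2 controls were not more alike than every such pair. The 27 genes of naive and core pluripotency all lay above the level filter, with Dppa5a at 13.03 to 13.06, Nanog at 12.67 to 12.79 and Pou5f1 at 12.22 to 12.48 on the 4 arrays. Of 19 feeder fibroblast markers on the array, 7 (Dcn, Lum, Postn, Col5a2, S100a4, Tagln and Prrx1) had a mean under 6, and the list's summed signal was, in log2, 13.81 and 13.80 in controls against 13.74 and 13.78 after MOF siRNA. That sum was carried by Fn1 (-0.09 and -0.02) and Vim (-0.11 and -0.05), at mean levels of 12.86 and 12.30. Some dimmer markers were higher in both experiments, with Acta2 at 0.56 and 0.54, Prrx1 at 0.29 and 0.16 and Col5a2 at 0.15 and 0.22. So were Col3a1 at 0.18 and 0.17, Twist1 at 0.13 and 0.10 and Col6a1 at 0.06 and 0.01. Others changed sign between experiments, among them Pdgfrb (0.14 and -0.13), Col1a1 (0.13 and -0.02), Thy1 (0.11 and -0.06), Col1a2 (0.12 and -0.05), Tagln (0.19 and -0.07), Dcn (-0.11 and 0.16) and Lum (-0.40 and 0.05). The median difference of the tested feeder markers was 0.115 in experiment 1 and -0.01 in experiment 2, against 0.01 and -0.01 over all genes. Of the 12 tested feeder markers 4 were higher and 1 lower without overlap, against 24.0% and 27.6% of all genes. The part of feeder cells in the results was not tested. The Y-linked genes went against the male label in part. Uty lay at 8.50 to 8.64 in E14, the 70.8th to 71.8th percentile of probesets, as in WD44 (71.1st to 71.9th). The lines' arrays differ in scale, so percentiles are given beside levels. Eif2s3y lay at 4.48 to 4.68 in E14 (15th to 17.5th percentile) and at 9.84 to 10.09 in WD44 (75.8th to 78.5th). Kdm5d lay at 4.23 to 4.37 in E14 and 8.14 to 8.30 in WD44, and Zfy1 at 3.99 to 4.17 and 7.29 to 7.48. In the female PGK12.1 arrays Eif2s3y lay at 3.15 to 3.76 and Uty at 3.09 to 4.31. The sex of the line is therefore given only as labelled, as is its strain, which no value here checks, and the part of this in the results was not tested.

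Kat8 itself, on chromosome 7, was lower in both experiments. Its level was 9.32 and 9.39 on the control arrays and 8.56 and 8.80 on the MOF arrays, so that the groups did not overlap. The differences were -0.76 and -0.59, which left 59.0% and 66.4% of the control signal. The mean difference was -0.675 (SE 0.0656), with a limma p of 0.00299 before adjustment and an adjusted p of 0.218. In WD44 the Kat8 differences were -0.95 and -0.73, and in PGK12.1 they were -1.37, -1.24 and -1.06. The Kat8 difference was 0.548 smaller in size in E14 than in PGK12.1 (SE 0.113), with an unadjusted limma p of 0.000971 and an adjusted p of 0.111. Against WD44 it was 0.165 smaller (SE 0.113, adjusted p = 0.491).

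No gene passed an adjusted p of 0.05 (limma with Benjamini-Hochberg adjustment) when the spread came from the 4 E14 arrays, so 0.0% of genes were called, and 2842 (21.1%) had an unadjusted p under 0.05. Each gene then has 1 residual degree of freedom. Both alternatives that estimate the spread otherwise called genes. A prior that follows the level and resists outliers (the trended robust prior), still on the 4 E14 arrays, called 1664 genes (12.3%), 681 higher (5.05%) and 983 lower (7.29%). The spread pooled over the E14, WD44 and PGK12.1 arrays called 614 (4.55%), of which 239 (1.77%) were higher and 375 (2.78%) lower, and 609 of the 614 were also called with that prior. In what follows, "called with pooled spread" refers to those 614 genes, and so does a bare "called" or "call" for an E14 gene. That spread also draws on WD44 and PGK12.1, so these calls are an alternative to the main fit, which called none. All other differences are given as values. The groups did not overlap for 6954 genes (51.6%), 3237 higher (24.0%) and 3717 lower (27.6%). The differences of the 2 experiments correlated at 0.579 across genes, which share their arrays and are not independent replicates.

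**Figure D1:**
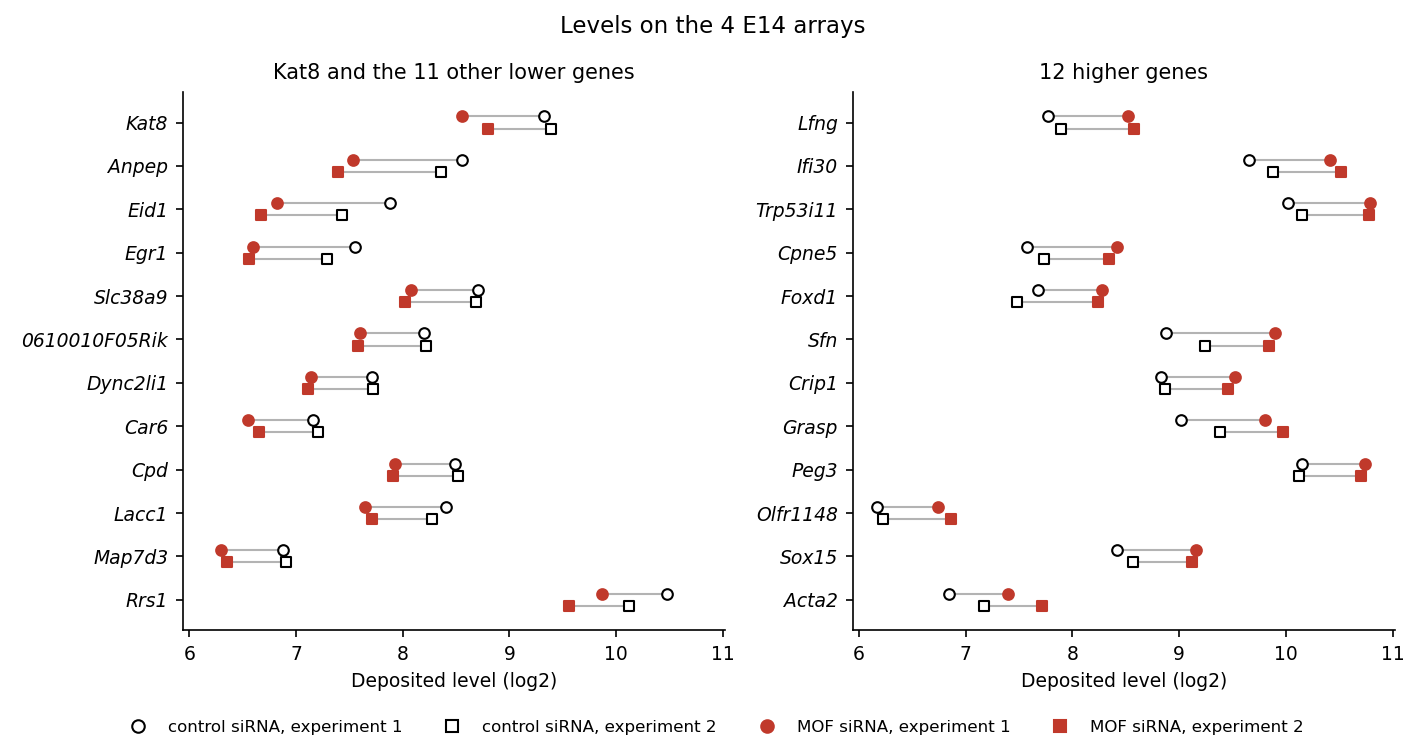
Deposited log2 level on each of the 4 E14 arrays for Kat8 and the genes whose smaller difference of the 2 experiments was largest, lower (left) or higher (right); open symbols are control and filled symbols MOF siRNA, circles experiment 1 and squares experiment 2, joined within an experiment. In each of these genes both MOF arrays lie on the same side of both controls, with Anpep the widest apart at -1.03 and -0.97.

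Differences of at least 1.5-fold in both experiments were found for 14 genes, 8 higher (0.0593%) and 6 lower (0.0445%). Anpep, the membrane aminopeptidase N, was the lowest. It lay at 8.56 and 8.36 on the control arrays and at 7.53 and 7.39 on the MOF arrays. Its differences of -1.03 and -0.97 average to 0.50 of the control level (SE 0.0444 on the log2 scale), with a limma p of 0.000365 before adjustment and an adjusted p of 0.218. Anpep was also lower in all experiments of the other lines, by -0.40 and -0.58 in WD44 and -0.60, -0.57 and -0.80 in PGK12.1. Eid1, an inhibitor of the acetyltransferase EP300, went from 7.88 and 7.43 to 6.82 and 6.67. Egr1, an immediate early transcription factor induced by growth factor signalling, went from 7.55 and 7.29 to 6.60 and 6.56. Slc38a9, a lysosomal arginine sensor upstream of mTORC1, went from 8.71 and 8.69 to 8.08 and 8.02. A second, dimmer Slc38a9 probeset differed by only -0.06 and -0.09, so the size of that difference depends on the probeset. The uncharacterised gene 0610010F05Rik went from 8.20 and 8.22 to 7.60 and 7.58. All these lower genes were called with pooled spread.

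The other named lower genes were Dync2li1, Car6, Cpd, Lacc1, Map7d3 and Rrs1, with mean differences of -0.57 to -0.66. Dync2li1 is a light intermediate chain of the dynein that carries cargo back along cilia. It lay at 7.71 and 7.72 in controls and at 7.14 and 7.11 after MOF siRNA. Car6, a secreted carbonic anhydrase, had differences of -0.61 and -0.56. Cpd, a carboxypeptidase of the trans-Golgi, had -0.56 and -0.61 in E14 but 0.06 and -0.06 in WD44. Rrs1, a ribosome assembly factor, lay at 10.48 and 10.12 in controls and 9.87 and 9.56 after MOF siRNA, so the experiments differed in level while their differences were alike.

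Among the higher genes, Lfng, a glycosyltransferase that modifies Notch receptors, lay at 7.77 and 7.89 on the control arrays and 8.52 and 8.58 on the MOF arrays. Its mean difference was 0.72 (SE 0.0444, unadjusted p = 0.000886, fold 1.65). Ifi30, a lysosomal thiol reductase of antigen processing, went from 9.65 and 9.88 to 10.41 and 10.52. It was higher in every experiment of the other lines too, by 0.48 and 0.41 in WD44 and 0.26, 0.37 and 0.36 in PGK12.1. Trp53i11, a p53-inducible gene, went from 10.02 and 10.15 to 10.79 and 10.78. Sfn encodes 14-3-3 sigma, a cell cycle adaptor that is a classical p53 target. It had the largest mean difference among the higher genes (0.81), with 8.88 and 9.24 in controls and 9.90 and 9.84 after MOF siRNA, and a second Sfn probeset gave 1.13 and 0.75. Cpne5, a calcium-dependent membrane binding protein, went from 7.57 and 7.73 to 8.42 and 8.34. Foxd1, a forkhead transcription factor, went from 7.68 and 7.48 to 8.28 and 8.24. Crip1, a small LIM domain protein, went from 8.83 and 8.87 to 9.52 and 9.46. Peg3, an imprinted zinc finger gene expressed from the paternal allele, was the most even of these, with 10.15 and 10.12 in controls and 10.74 and 10.70 after MOF siRNA. Sox15, a Sox factor expressed in ES cells, had differences of 0.74 and 0.55. In WD44, Cpne5 (0.05 and 0.04), Peg3 (0.06 and 0.06) and Crip1 (0.06 and -0.11) stayed near 0. In the test of E14 minus WD44 their adjusted p-values were 0.0641 (Cpne5), 0.0721 (Peg3) and 0.0641 (Crip1), so none was called.

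The promoters of 2 lower and 2 higher genes are printed because these genes were at least 1.5-fold apart in both experiments. Each runs from 250 bases before to 50 after the RefSeq start (GRCm38.p6), 5′ to 3′ along the gene, with every CG in capitals.
Anpep, chr7:79848161-79848460, minus strand, 28 CG: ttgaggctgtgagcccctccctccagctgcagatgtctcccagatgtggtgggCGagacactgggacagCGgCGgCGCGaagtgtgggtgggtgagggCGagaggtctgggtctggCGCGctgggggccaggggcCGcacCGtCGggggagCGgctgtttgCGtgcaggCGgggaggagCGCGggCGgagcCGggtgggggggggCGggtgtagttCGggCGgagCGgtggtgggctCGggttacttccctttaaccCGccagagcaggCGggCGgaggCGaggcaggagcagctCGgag
Slc38a9, chr13:112660516-112660815, plus strand, 16 CG: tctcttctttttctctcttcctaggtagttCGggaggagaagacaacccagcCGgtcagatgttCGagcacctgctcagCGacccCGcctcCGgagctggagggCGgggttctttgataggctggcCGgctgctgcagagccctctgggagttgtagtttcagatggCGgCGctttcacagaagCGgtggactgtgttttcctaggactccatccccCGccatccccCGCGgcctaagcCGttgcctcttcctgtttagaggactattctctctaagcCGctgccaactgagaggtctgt
Lfng, chr5:140607091-140607390, plus strand, 22 CG: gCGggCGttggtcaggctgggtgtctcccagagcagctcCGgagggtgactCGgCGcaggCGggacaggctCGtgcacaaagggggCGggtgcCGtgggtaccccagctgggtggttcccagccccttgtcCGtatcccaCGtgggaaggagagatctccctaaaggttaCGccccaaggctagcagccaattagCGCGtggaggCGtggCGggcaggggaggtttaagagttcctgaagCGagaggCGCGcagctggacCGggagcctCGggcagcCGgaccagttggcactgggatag
Ifi30, chr8:70766614-70766913, minus strand, 11 CG: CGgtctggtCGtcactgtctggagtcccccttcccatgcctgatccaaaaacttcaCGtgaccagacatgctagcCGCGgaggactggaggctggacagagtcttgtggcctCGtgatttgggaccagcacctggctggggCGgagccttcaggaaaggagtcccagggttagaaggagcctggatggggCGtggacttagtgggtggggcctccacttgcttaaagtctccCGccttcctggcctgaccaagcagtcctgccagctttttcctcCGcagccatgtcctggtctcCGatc
The CG dinucleotide was counted on 1 strand, since it reads the same on both. It was held by 99.4% of the promoters of 10700 tested genes matched in the table. The median was 20 CG per promoter for these, 20 for 300 genes called lower with pooled spread and 18 for 198 called higher, with quartiles of 13 to 27 and 9 to 27. The printed promoters held 28 and 16 (lower genes) and 22 and 11 (higher genes).

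No partner of MOF was called. Of the MSL subunits, Msl3 was higher by 0.16 and 0.16, Msl1 by 0.09 and 0.24, and Msl2, the ubiquitin ligase subunit, was lower by -0.21 and -0.11. None of these passed with pooled spread. Of the 10 tested NSL complex genes, 1, Kat8, was called with pooled spread. Kansl2 lay at 10.97 and 10.98 in controls and 11.14 and 11.16 after MOF siRNA. Kansl1 differed by 0.05 and -0.02, and Kansl3 by 0.02 and -0.01. Of 10 other MYST acetyltransferases and H4K16 deacetylases none was called, and their mean differences ran from -0.12 (Sirt1, a deacetylase of this mark) to 0.12 (Kat7, another MYST enzyme).

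p53 is a stress-activated transcription factor whose targets stop the cell cycle, repair DNA and start cell death. Of 24 listed p53 targets 20 were tested. In 13 the MOF arrays lay above both controls and in none below, against 24.0% and 27.6% of all genes. The median difference was 0.18 (0.21 in experiment 1 and 0.15 in experiment 2) and 0.00 over all genes tested. With pooled spread 5 were called higher and 0 lower, against 1.77% and 2.78% of all genes. Btg2, an antiproliferative gene, went from 8.73 and 8.87 to 9.14 and 9.26. Plk2, a kinase, went from 7.33 and 7.39 to 7.72 and 7.79. Trp53inp1, a p53 cofactor of cell death and autophagy, went from 10.87 and 10.94 to 11.27 and 11.26. Eda2r, a death receptor of the tumour necrosis factor family, went from 8.49 and 8.60 to 8.90 and 8.99. Aen, an apoptosis-related nuclease, had differences of 0.40 and 0.30. Mdm2, the ubiquitin ligase that restrains p53, was higher by 0.32 and 0.12 and Ccng1, a cyclin of the p53 feedback, by 0.25 and 0.26. Neither was called with pooled spread. Ddit4 (-0.13 and -0.10), Tnfrsf10b (-0.02 and -0.13) and Sesn1 (-0.04 and -0.01) were a little lower. Cdkn1a, Bax, Fas and Gdf15 had no tested single-symbol probeset. The list's median was 0.09 in WD44 and 0.40 in PGK12.1.

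Genes of the primary cilium, a sensory antenna built by intraflagellar transport, leaned the other way. Of 29 listed transport and BBSome genes 27 were tested, 21 were lower without overlap and 2 higher, against 27.6% and 24.0% of all genes. The median difference was -0.245 (-0.23 and -0.25 by experiment). With pooled spread 7 were called lower and 0 higher, against 2.78% and 1.77% of all genes. Ift57, a subunit of transport complex B, went from 7.15 and 7.00 to 6.52 and 6.47. The other 2 transport subunits called with pooled spread, Ift81 (-0.27 and -0.46) and Ift172 (-0.23 and -0.40), belong to the same complex. Among genes of the BBSome, a coat that moves membrane proteins out of cilia, Bbs2 lay at 8.82 and 8.88 in controls and 8.47 and 8.53 after MOF siRNA, and Bbs7 at 7.60 and 7.79 against 7.23 and 7.37. Bbs5 had -0.33 and -0.47, and Dync2li1, given above, completes the genes called with pooled spread. The higher genes were Ift20 (0.08 and 0.19) and Ift52 (0.29 and 0.07).

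The transition zone, the gate at the base of the cilium, gave a like picture. Of 17 tested genes 13 were lower without overlap and 1 higher (27.6% and 24.0% of all genes), with a median of -0.195. With pooled spread 6 were called lower, against 2.78% of all genes. The trended robust prior called 7 lower (41.2%) and 1 higher (5.88%), against 7.29% and 5.05% of all genes. Cep290, a structural link between microtubules and membrane, went from 8.05 and 7.97 to 7.43 and 7.48. Tmem67, a transition zone receptor, went from 7.87 and 7.85 to 7.42 and 7.26. Rpgrip1l had -0.44 and -0.64, Cc2d2a -0.42 and -0.32, Tctn3 -0.30 and -0.34, and the X-linked Rpgr -0.42 and -0.34. Tmem231 was the exception that was higher, by 0.21 and 0.27. The medians of the transport list in the other lines were -0.30 (WD44) and -0.33 (PGK12.1), and of the transition zone list -0.18 and -0.24. Both cilium lists hold long genes, with a median genomic span of 40.4 kb and 29.0 kb against 21.3 kb for all tested genes with a span, and in E14 the differences moved with span, as described further on. The part of span in the cilium lists was not tested.

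**Figure D2:**
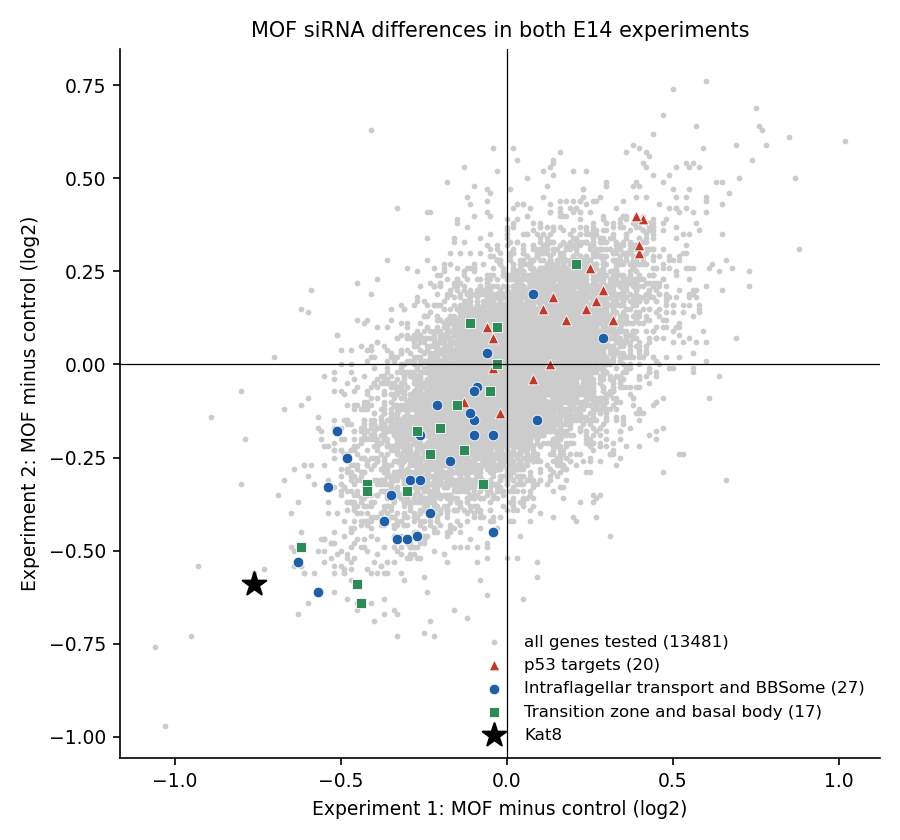
MOF minus control difference (log2) of experiment 1 on the horizontal and experiment 2 on the vertical axis, 1 point per tested gene, with 3 gene lists and Kat8 marked. The p53 targets lie mostly at the upper right (medians 0.21 and 0.15) and the transport and BBSome genes mostly at the lower left (medians -0.23 and -0.25).

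The naive and core pluripotency genes stood near the median of all genes. Of 27, 5 were higher and 5 lower without overlap (24.0% and 27.6% of all genes), and the median difference was -0.02. Pou5f1, the core factor Oct4, went from 12.22 and 12.31 to 12.43 and 12.48. Nanog differed by 0.00 and -0.09, Esrrb by -0.03 and -0.02, and Sox2 by -0.28 and -0.14. With pooled spread 2 were called higher and 0 lower, against 1.77% and 2.78% of all genes. Tcl1, an AKT coactivator, went from 9.69 and 9.88 to 9.96 and 10.17. Dppa3, a maternal factor that protects methylated DNA, went from 8.07 and 7.95 to 8.27 and 8.47, and its second probeset gave 0.04 and 0.41.

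Of 13 trophectoderm genes and simple keratins 4 were higher and 2 lower without overlap, against 24.0% and 27.6% of all genes. Their median difference was 0.145 (0.22 and 0.09 by experiment). With pooled spread 1 was called (higher), against 1.77% of all genes. With the trended robust prior 3 were called higher (23.1%, against 5.05% of all genes) and 0 lower. Ascl2, an imprinted trophoblast factor, lay at 9.04 and 9.05 in controls and at 9.55 and 9.58 after MOF siRNA and was called with pooled spread. In the other lines Ascl2 stayed between -0.10 and 0.16. Cdx2, the trophectoderm factor, was higher by 0.35 and 0.23 and was not called with pooled spread. Among 14 primitive endoderm and basement membrane genes, the 3 chains of laminin-111 were called lower with pooled spread, against 2.78% of all genes. No others were called. This list also holds long genes, with a median genomic span of 65.3 kb against 21.3 kb for all tested genes with a span. The part of span in the laminin calls was not tested. Lama1 went from 8.89 and 8.79 to 8.50 and 8.44, Lamb1 from 8.81 and 8.84 to 8.56 and 8.56, and Lamc1 from 11.65 and 11.53 to 11.34 and 11.21. The collagen IV genes Col4a1 (0.07 and 0.03) and Col4a2 (0.01 and -0.01) and the endoderm factor Gata4 (0.12 and 0.13) were not called. In WD44 the laminin differences were 0.11 and 0.01 (Lama1), 0.03 and 0.04 (Lamb1) and 0.02 and -0.01 (Lamc1). The difference of Lama1 between E14 and WD44 was -0.43 (SE 0.0949, adjusted p = 0.116), which did not pass. Lefty2, an inhibitor of Nodal, was lower by -0.32 and -0.35 and Bmp4 by -0.44 and -0.31, both called with pooled spread. Nodal itself, the ligand, was higher by 0.23 and 0.20 without a call.

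Of 8 tested genes of MHC class I and antigen loading, 1 was called with pooled spread (higher, against 1.77% of all genes). Tapbp, the chaperone tapasin that loads peptides, went from 8.61 and 8.43 to 9.11 and 9.17, while B2m, the light chain, had -0.37 and -0.07. Of 10 tested interferon response genes 3 were higher and 3 lower without overlap (24.0% and 27.6% of all genes). With pooled spread 2 of them were called higher, against 1.77% of all genes. Bst2, the virus tether tetherin, went from 8.20 and 8.35 to 8.60 and 8.72, and Irf9, a subunit of the interferon-activated factor ISGF3, from 7.91 and 7.98 to 8.25 and 8.37. In WD44 Bst2 differed by -0.12 and 0.05, and Irf9 by 0.06 and -0.02. Gpx2, a glutathione peroxidase (0.65 and 0.35), was the 1 gene of 23 redox enzymes called with pooled spread (higher, against 1.77% of all genes). Among 28 autophagy genes Atg4a (-0.40 and -0.69) and Atg4c (-0.31 and -0.41), proteases that process LC3, were called lower, against 2.78% of all genes. A second Atg4a probeset gave -0.38 and -0.50. Map1lc3b, which encodes LC3B, had 0.37 and 0.23 without a call. Of 23 tested lysosomal genes 1 was called higher and 1 lower with pooled spread (1.77% and 2.78% of all genes). The higher was Npc2, a lysosomal cholesterol carrier (0.38 and 0.32), and the lower Lipa, the lysosomal acid lipase (-0.22 and -0.73).

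Lists of basic metabolism had medians of -0.05 to 0.04, against 0.00 over all genes. With pooled spread no gene was called among 19 of cholesterol synthesis (median 0.04), 34 of the mitochondrial ribosome (0.04), 20 of glycolysis and hypoxia (-0.05), 21 of ATF4 and the unfolded protein response (-0.03) or 18 of mTORC1 regulation (-0.05). Of all genes, 4.55% were called in that fit. The trended robust prior on the 4 E14 arrays called some of their members. It called 4 lower and 0 higher of the glycolysis and hypoxia genes (20% lower, against 7.29% of all genes), 3 lower and 1 higher of mTORC1 regulation, and 4 higher and 1 lower of the mitochondrial ribosome. It also called 1 cholesterol synthesis gene higher, and 1 gene each way of ATF4 and the unfolded protein response. Of 38 nuclear genes of the respiratory chain (median 0.03), 1 was called with pooled spread (higher, against 1.77% of all genes). It was Cox5b, a subunit of cytochrome c oxidase (0.39 and 0.18). The trended robust prior called 5 of the 38 higher (13.2%, against 5.05% of all genes) and 2 lower. Hspa5, the main chaperone of the endoplasmic reticulum, had -0.27 and -0.23, and Bnip3, a hypoxia-induced mitophagy gene, -0.31 and -0.47. A second Bnip3 probeset gave -0.09 and -0.31. Among 22 licensing genes Cdt1, a loader of the replicative helicase, was the 1 called (0.34 and 0.21), and among 19 mitosis genes Cenpa, the histone of centromeres (0.37 and 0.30). Both were called higher with pooled spread, as were 1.77% of all genes. A list taken from genes lowered in the other lines held 18 tested genes, of which 16 were lower without overlap in E14 (27.6% of all genes) and 7 (2.78% of all genes) were called with pooled spread (median -0.29). It was drawn up from earlier results of this series, so its direction is not independent evidence. Zc4h2 went from 9.32 and 9.20 to 8.59 and 8.65, and Plekhb1 from 6.72 and 6.83 to 6.20 and 6.29. Of 9 genes taken as raised in PGK12.1, 5 were higher and 2 lower without overlap, against 24.0% and 27.6% of all genes. With pooled spread 3 of them were called higher and 0 lower (1.77% and 2.78% of all genes), with a median of 0.235. They too were chosen with results of this series known, so their direction is not independent evidence. Dglucy, at 1.25, 1.22 and 1.39 in PGK12.1, was 0.16 and 0.37 in E14.

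On the X chromosome, 408 genes had a median difference of -0.03, and 13031 autosomal genes 0.00. The shift of -0.03 (-0.04 and -0.03 by experiment) lay within -0.01 to -0.06 of the other 5 experiments. With pooled spread 27 X-linked genes (6.62%) were called lower and 5 (1.23%) higher, against 2.66% and 1.80% of autosomal genes. No autosome had as large a share called lower, the next being chromosome 18 with 4.09%. The trended robust prior called 48 X-linked genes lower (11.8%) and 17 higher (4.17%), against 7.17% and 5.07% of autosomal genes. By non-overlap the X had 34.8% lower, and chromosomes 13 (35.8%) and 3 (35.1%) had more. The autosomes' shares ran down to 21%. Median spans ran from 14.4 kb (chromosome 17) to 33.1 kb (chromosome 18), with 19.1 kb on the X. Map7d3, a microtubule-associated protein, went from 6.88 and 6.91 to 6.30 and 6.35. Zc4h2 is given above. Arxes1 (-0.49 and -0.56) and Arxes2 (-0.93 and -0.54) are near-identical neighbours whose probes may not tell them apart. Renbp, a sugar epimerase, was the highest X-linked gene, from 9.78 and 10.13 to 10.48 and 10.63, followed by Nrk, a kinase gene (0.51 and 0.42). Wdr45, an autophagy factor, was higher by 0.38 and 0.29, and in all other experiments by 0.26 to 0.33.

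Lower genes in E14 tended to have a long genomic span. Of the 375 called lower with pooled spread, 374 had a genomic span, from RefSeq start to end, with a median of 47.8 kb. The median was 11.1 kb for the 239 called higher and 21.3 kb for the 13444 tested genes with a span. With genes in 5 equal groups by span, from the shortest to the longest group the share called lower went from 0.93% to 5.76% and the share called higher from 3.35% to 0.97%. The median difference went from 0.07 to -0.05 in experiment 1 and from 0.03 to -0.06 in experiment 2. The longest minus the shortest group was -0.12 and -0.09. Among genes with a control level of 8 and over it was -0.15 and -0.11. In WD44 it was -0.04 and -0.05, and in PGK12.1 -0.01, -0.05 and -0.01. A two-sided exact permutation test of the 2 E14 against the 5 other experiments gave p = 0.0952. That test doubled the smaller tail, so 0.0952 was its smallest possible p. It could not pass 0.05 whatever the values, and no conclusion is drawn from it. Spearman's correlation of difference and span, across 13444 genes that are not independent, was -0.25 and -0.22 in E14, and -0.02 to -0.10 elsewhere. Level also moved with direction. Of genes with a control level under 7, 28.5% were higher and 14.3% lower without overlap, against 21.4% and 34.9% at levels of 8 to 9.

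**Figure D3:**
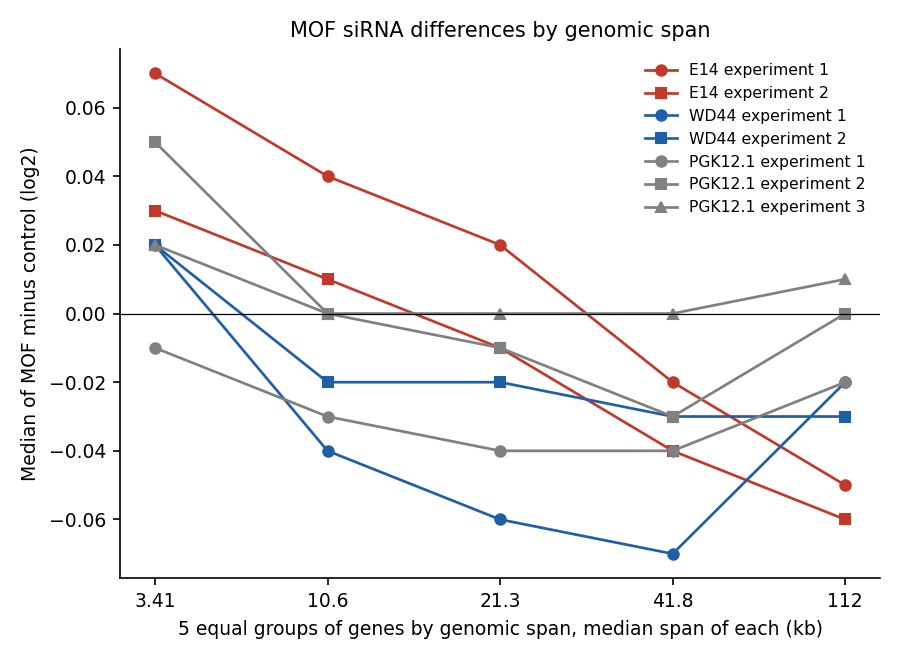
Median MOF minus control difference (log2, vertical axis) in 5 equal groups of genes ordered by genomic span (median span in kb on the horizontal axis), 1 line per experiment. Both E14 lines (red) fall steadily from the shortest to the longest group, ending at -0.05 and -0.06, while the WD44 and PGK12.1 lines end between -0.03 and 0.01.

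The signs of the E14 differences recurred in part in the other lines. Of the 375 genes called lower with pooled spread, 288 (76.8%) were lower in both WD44 experiments, where 39.8% of all genes were, and 298 (79.5%) in all 3 PGK12.1 experiments (27% of all genes). Of the 239 called higher, 129 (54.0%) were higher in both WD44 experiments (29.0% of all genes) and 150 (62.8%) in all 3 of PGK12.1 (22.7%). The higher genes had a median difference of 0.365 in E14, 0.07 in WD44 and 0.15 in PGK12.1. The lower ones had -0.375, -0.215 and -0.23. The lines' arrays share no controls, but this pooled spread was computed over all of them. It favours genes whose experiments agree within WD44 and within PGK12.1, in either direction. All genes are therefore not an even baseline for these shares, and the size of that part was not tested.

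The MOF effect itself differed between E14 and WD44 for 21 genes (0.156%), 11 higher (0.0816%) and 10 lower (0.0742%) in E14, by the limma test of E14 minus WD44 at an adjusted p of 0.05. The count fell to 0 in the fits without the block that left out E14 control replicate 1 or MOF replicate 1, was 1 without MOF replicate 2 and 142 without control replicate 2. Without the filter on low levels it was 0. The 6 lower genes with the largest gap were Ptgs2, Myof, Cryab, Edn1, Mme and Lrrc8c. Myof, a membrane repair ferlin, went from 7.62 and 7.65 to 7.07 and 7.12 in E14, while its WD44 differences were 0.21 and 0.44 (E14 minus WD44 -0.865, SE 0.107, adjusted p = 0.0372). Mme, the peptidase neprilysin, went from 10.73 and 10.63 to 10.21 and 10.18, and had 0.30 and 0.31 in WD44. Lrrc8c, a subunit of volume-regulated anion channels, had -0.52 and -0.61 against 0.25 and 0.18. Ptgs2, the inducible cyclooxygenase, had -0.37 and -0.67 against 0.45 and 0.30, at E14 levels of only 5.69 to 6.36. Edn1, the vasoconstrictor endothelin, had -0.38 and -0.16 against 0.53 and 0.54. For Cryab, a small heat shock protein, the gap came mostly from WD44 (0.76 and 0.67), since E14 had -0.04 and -0.17.

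Ccn1 and Cald1 belong to the list of targets of SRF, a transcription factor, and YAP, a transcriptional coactivator, which answer to actin and cell tension. Ccn1, a matrix signalling protein, went from 9.22 and 9.19 to 8.90 and 9.01 in E14, with 0.55 and 0.47 in WD44. Cald1, the actin binder caldesmon, went from 8.43 and 8.44 to 8.05 and 8.13, with 0.34 and 0.38 in WD44. The 15 tested genes of that list had a median of -0.045 in E14, 0.21 in WD44 and 0.19 in PGK12.1. With pooled spread 3 were called lower and 1 higher in E14, against 2.78% and 1.77% of all genes. The lower ones were Egr1, Cald1 and the focal adhesion gene Vcl (10.19 and 10.12 to 9.81 and 9.80). Acta2, smooth muscle actin, went the other way, from 6.84 and 7.17 to 7.40 and 7.71, and it is also a feeder marker. In WD44 Acta2 had 0.94 and 1.

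Of the 11 genes higher in E14, Psme2, a proteasome activator subunit, went from 10 and 10.12 to 10.58 and 10.65, while WD44 had -0.07 and -0.11. Grasp, a synaptic scaffold also called tamalin, went from 9.02 and 9.38 to 9.80 and 9.97, with -0.13 and -0.15 in WD44. Foxi3, a forkhead factor, had 0.40 and 0.48 against -0.25 and -0.52. The olfactory receptor Olfr1148, near the level filter, went from 6.17 and 6.22 to 6.74 and 6.86. For the small RNAs Snord118 (0.06 and -0.27 in E14) and Rny1 (-0.03 and -0.13), and for Bin2 (-0.09 and 0.15), the gap came from lower values in WD44 (-1.67 and -1.37, -1.01 and -1.35, -0.86 and -0.73).

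**Figure D4:**
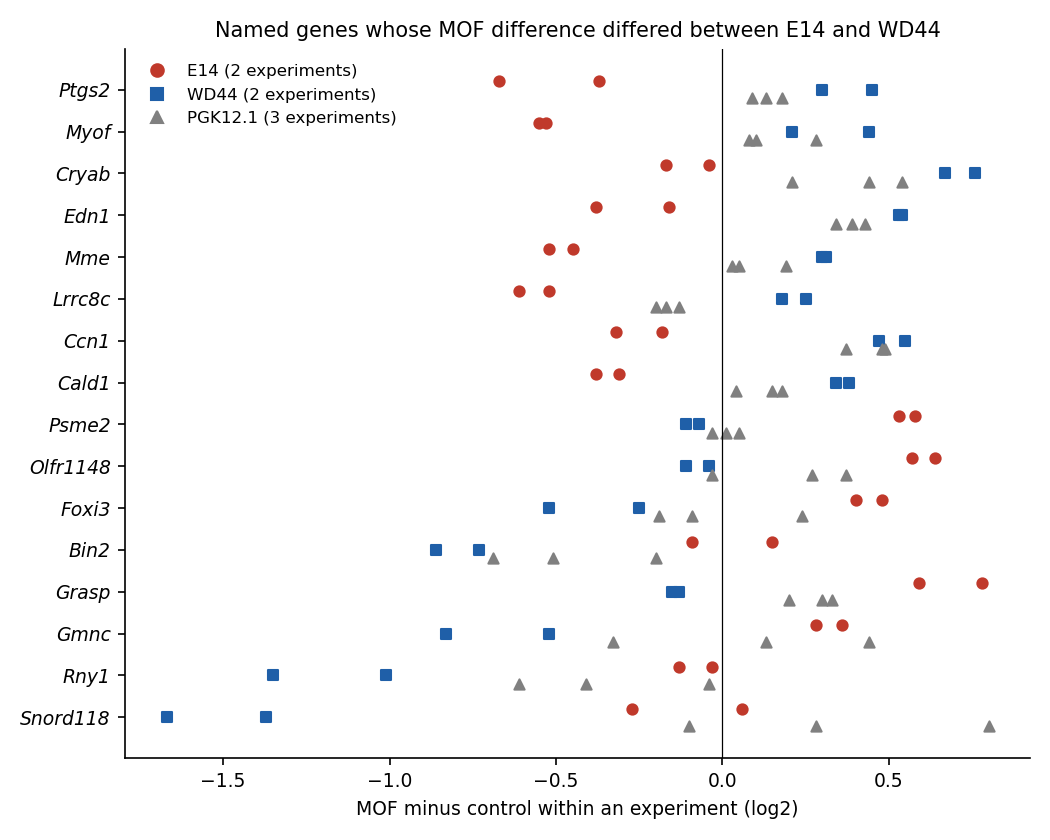
MOF minus control difference (log2, horizontal axis) in each experiment of E14, WD44 and PGK12.1 for the 16 named genes called in the test of E14 minus WD44. Both E14 points lie to the left of 0 and both WD44 points to the right for the upper 8 genes, while Snord118, Rny1 and Bin2 are set apart by WD44.

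Between E14 and PGK12.1 no gene passed (0.0%), and 2083 (15.5%) had an unadjusted p under 0.05. The count was 73 at a mean log2 of at least 7, 33 with pooled spread and 389 with the trended robust prior. Klhl28, which encodes a BTB and kelch domain protein, went from 9.05 and 8.79 to 8.49 and 8.32 in E14 and had 0.39, 0.26 and 0.28 in PGK12.1 (E14 minus PGK12.1 -0.825, SE 0.0893, adjusted p = 0.0583). Myof had 0.10, 0.08 and 0.28 in PGK12.1 and Ccn1 had 0.49, 0.48 and 0.37, each above both E14 differences. Psme2 and Ascl2 were higher in E14 while PGK12.1 stayed between -0.10 and 0.05. The second round of siRNA was given in that line only, and its part in these differences was not tested.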

How the data were processed

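Total RNA of 4 E14 samples (2 MOF, 2 control) was compared, with 4 WD44 and 6 PGK12.1 samples as reference lines. The authors deposited 1 log2 expression value per probeset and array, made with Affymetrix Expression Console and RMA per the submitters' processing notes. Their versions and the genome build are not given in the sources used here. RMA quantile-normalizes arrays, which can hide a shift shared by all genes.

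Gene names came from the platform annotation, brought up to date by gene identifier with RefSeq of GRCm38.p6 (21698 of 21789 single-symbol probesets matched, 1621 had several symbols and 12146 none). The single-symbol probeset with the highest mean stood for a gene. Genes entered with a mean log2 of at least 6.

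Differences were tested with limma 3.58.1 (R 4.3.3), with the experiment number as a block and the spread taken from the 4 E14 arrays, at a Benjamini-Hochberg adjusted p of 0.05. All p-values given for E14 genes come from limma. Differences between lines were tested as interaction terms over both lines' arrays, each with its experiments as blocks. The pairing comes from the labels, which number the experiments. Same-numbered arrays deviated together with a correlation of 0.141, which with 2 pairs does not settle it. The labels describe separate treatments, so p-values measure the spread between treatments of 1 line. Fits were tested on simulated data.

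Named genes were Kat8, the 12 higher and 12 lower genes with the largest smaller difference of the 2 experiments, 5 X-linked genes in each direction and 4 at most per list by the same rule, and up to 6 each way between lines. Other genes named are members of the lists and were chosen after their values were seen. The members and lists were chosen with earlier results of these data known, so no p is given over a list. Alternatives were the fit without the block, every probeset, other filters, median centring, cyclic loess, a trended robust prior, a spread pooled over the 3 lines, each E14 array left out, and PGK12.1 experiment 3 alone. Bulk RNA cannot tell fewer cells of a type from less RNA per cell.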

Additional observations from a re-analysis of the deposited data

Results flagged for a closer look

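The effect of MOF siRNA differed between E14 and WD44 by the limma interaction test (E14 minus WD44, log2, each with an adjusted p under 0.05) for 16 named genes. Lower in E14 were Ptgs2 (-0.895), Myof (-0.865), Cryab (-0.82), Edn1 (-0.805), Mme (-0.79), Lrrc8c (-0.78), Ccn1 (-0.76) and Cald1 (-0.705). In these 8 both E14 experiments were negative and both WD44 experiments positive. Higher in E14 were Psme2 (0.645), Olfr1148 (0.68), Foxi3 (0.825), Grasp (0.825), Bin2 (0.825), Gmnc (0.995), Rny1 (1.10) and Snord118 (1.415). For Gmnc, a cofactor of multiciliated cell formation, E14 had 0.36 and 0.28 and WD44 -0.52 and -0.83, at E14 levels of 6.35 to 6.75. The adjusted p-values ran from 0.0372 (Myof) to 0.0496 (Psme2), and none of these genes passes without the filter on low values or without E14 control replicate 1.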

How the results depend on the processing

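The count of E14 genes that passed was 0 in the main fit and 0 without the experiment block. It was also 0 with every probeset, both other filters, centring and loess. It was 1664 with the trended robust prior and 614 with the spread pooled over 3 lines. Kat8 passed under those same 2 settings (difference -0.675, adjusted p = 0.000486 and 0.00778), and ranged from -0.795 to -0.555 with 1 array left out.

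The count of genes that differed between E14 and WD44 (21) was 38 without the block, 0 without the level filter, 47 at a mean log2 of at least 7, 62 with loess and 95 with the trended robust prior, and ranged from 0 to 142 with 1 array left out. The count between E14 and PGK12.1 (0) was 0 without the block, 73 at a mean log2 of at least 7, 1 with centring, 1 with loess, 389 with the trended robust prior and 33 with the pooled spread. The X minus autosomal median (-0.03) was -0.015 without the filter and -0.02 at a mean log2 of at least 7, and ranged from -0.035 to -0.01 with 1 array left out. The causes of these changes were not tested.

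Of 144 named E14 genes, 0 passed in the main fit. Without the block 144 kept their direction and did not pass, while 65 passed with the pooled spread and 98 with the trended robust prior. Leaving out 1 array turned the sign of 2, both of them low and uncalled: Zfp352 (-0.565 to 0.005) and Usp17lc (-0.205 to 0.015). With genes in 5 groups by span, the longest minus the shortest group stayed between -0.12 and -0.09 under every setting run.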
